A study of Drosophila melanogaster with 60 samples.

Results

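The mitochondrial ribosomal protein genes of Drosophila melanogaster are described here in chromatin immunoprecipitation sequencing (ChIP-seq) of embryonic nuclei. They were taken as every protein-coding gene of the dm6 Ensembl annotation whose symbol is mRpL or mRpS followed by a number, which gave 73 of 13968 protein-coding genes. Of these, 47 encode proteins of the large subunit and 26 encode proteins of the small subunit. The choice used names only and no measured value. Proteins of the same ribosome that carry other names, such as tko and bonsai, were counted in a separate list.

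The mitochondrial ribosome translates the few proteins encoded by mitochondrial DNA, which are core subunits of the respiratory chain and the ATP synthase. Its protein components are encoded in the nucleus, made in the cytoplasm and imported, so their genes are active in nearly every cell and their promoters are classed as housekeeping promoters. Acetylation of histone H3 at lysine 27 (H3K27ac) marks active promoters and enhancers, whereas trimethylation of the same residue (H3K27me3) is written by Polycomb complexes over silenced genes. Pho is the DNA-binding Polycomb group protein that recruits these complexes, and Ubx is a Hox transcription factor that shapes segment identity in muscle and nervous system.

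Nuclei of mesoderm and of neurons were obtained by INTACT, in which tagged nuclei are purified from whole embryos. The degradation embryos carried twi-INTACT, which tags mesodermal nuclei, together with GFP-Ubx and Mef2>Nslmb, in which the muscle driver Mef2 supplies Nslmb to target GFP-tagged protein for destruction. Their controls carried twi-INTACT, GFP-Ubx and UAS-Nslmb without the Mef2 driver, so that both groups held the tagged Ubx and the degradation transgene. Both groups were taken at embryonic stages 14 to 17, with 3 libraries each for H3K27ac, H3K27me3 and Pho. Mesodermal nuclei from twi-INTACT embryos without these transgenes were profiled late, at stages 14 to 17, and early, at stages 10 to 13, with 2 libraries per stage for H3K27ac and for H3K27me3. Ubx was profiled with 2 late and 3 early mesodermal libraries, and in neuronal nuclei from elav>INTACT embryos with 2 late and 2 early libraries. Each library gave 1 deposited list of broad peaks, so 35 lists were used, and none of them measures Ubx in the degradation embryos.

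The 35 lists differed widely in size. H3K27ac lists held between 4721 and 85449 peaks over 1.01 to 26.9 Mb, H3K27me3 lists between 3957 and 56131 peaks, Pho lists between 45669 and 61534 and Ubx lists between 936 and 66459. The lists give no read counts, so the sequencing depth behind them is unknown. The peaks in the control H3K27ac list R3 are named R2 inside the list, and those in the early mesoderm Ubx list R2 are named S. No 2 of the 595 pairs of lists shared more than 0.15% of their peaks exactly, and values with and without these lists are given where they matter. Nothing in the labels says whether libraries of 1 group came from separate collections, so p-values measure only the spread between these libraries. In H3K27ac, mesoderm and muscle markers had 27.7% of their windows covered in degradation nuclei and 24.8% in control nuclei, against 8.91% and 13.2% for neuronal markers. The late and early twi-INTACT nuclei gave 23.1% and 14.2% for mesoderm and muscle markers, against 7.54% and 4.17% for neuronal markers. Markers of other cells, such as glia, blood cells, gut and germ line, had 20.1% covered in degradation nuclei, 20.9% in control nuclei, 11% in late nuclei and 10.1% in early nuclei. The early mesoderm gene twi had no H3K27ac peak in the late or the early lists, and the early lists also lacked one at the muscle genes Mhc, Mlc2, Tm2, up, wupA and bt. The part of other cells in the results was not tested, and the neuronal nuclei, profiled for Ubx only, could not be checked in this way.

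Occupancy was measured over a window of 1 kb either side of the annotated start of each gene, as the percentage of the 2 kb covered by peaks. A gene was said to have a peak where the overlap was at least 1 bp. The 73 genes are short and crowded. Their median length was 909 bp, against 2164.5 bp for all protein-coding genes, although mRpS9 spans 13391 bp and mRpS5 6299 bp. A second protein-coding start lay inside the window of 60 of the 73 genes (82.2%), against 40.7% of all genes. In 56 of the 73 (76.7%) at least 1 such start was head to head, that is, on the opposite strand and pointing away, against 33.3% of all genes. The corresponding share was 58.7% for cytoplasmic ribosomal protein genes and 44.3% for nuclear genes of the respiratory chain. The median distance to the nearest head-to-head start was 287.5 bp (range 20 to 793 bp), close to the 302 bp of all 4648 genes with such a start. It was at most 100 bp for 17 of the 56 members, a larger share than the 712 of the 4648 genes.

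Partners of these divergent pairs have varied roles. mRpL55 faces ATPsynD, which encodes a subunit of the ATP synthase, at 95 bp, and mRpL35 faces Mitofilin, which shapes the mitochondrial inner membrane, at 192 bp. These were the 2 members whose window held the start of a gene from another mitochondrial list. mRpL11 faces HtrA2, a mitochondrial protease, at 126 bp, and mRpL18 faces Taz, which acts on the mitochondrial lipid cardiolipin, at 20 bp. mRpL2 faces FoxK, a forkhead transcription factor, at 64 bp, and mRpL44 faces the chromatin remodelling subunit gene Snr1 at 290 bp. mRpL13 and mRpL53 share an annotated start with CG10602 and CG33155. For such pairs a peak in the window cannot be assigned to 1 of both genes.

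The DNA just around these starts carried a recurrent 6-letter word. The palindromic E-box CAGCTG, a class of site read by basic helix-loop-helix factors, lay between 250 bp upstream and 50 bp downstream of the start in 40 of the 73 genes (54.8%), against 17.6% of all 13968 promoters of the same length. It was found in 22.7% of promoters of respiratory chain genes and in 9.78% of those of cytoplasmic ribosomal proteins. The words searched were chosen with earlier results of these data known. The sites of 6 genes are shown, 5 of them within 14 bp of the start and that of mRpS9 60 bp upstream of it. Each is 30 bases of the release 6 reference genome (NCBI RefSeq FASTA), 5′ to 3′ on the strand of the gene, with the E-box in capitals and lower-case flanks.
mRpL2, chr3L:11120845-11120874, plus strand, first base of the E-box 10 bp downstream of the start: aacgccgcgtaaCAGCTGttttcagccgca
mRpL11, chr3R:14511821-14511850, plus strand, 5 bp upstream: cagcaataccatCAGCTGttgctgcttctt
mRpL45, chr3R:22618471-22618500, plus strand, 9 bp upstream: aatcacgtttgcCAGCTGgtcgcgttagtg
mRpL55, chr3R:19094874-19094903, minus strand, 14 bp downstream: cggtcacactatCAGCTGcctggcagcaaa
mRpS9, chr3R:7902710-7902739, minus strand, 60 bp upstream: ggcgccaaaaatCAGCTGaaagcttgtgtg
mRpS35, chr3L:2780875-2780904, plus strand, 12 bp upstream: agtttctgtaaaCAGCTGattgcttgctat

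These 6 genes cover both subunits and both kinds of promoter. mRpL2, a protein of the bacterial-type core near the catalytic centre, mRpL11, a protein of the region that receives translation factors in bacteria, and mRpL55, which has no bacterial counterpart, each share their window with a divergent gene. mRpL45, which in mammals lies at the exit of the nascent chain, and the small-subunit proteins mRpS9 and mRpS35 have no other start within 1 kb. The sites sat close to the start: a match began between 30 bp upstream and 50 bp downstream in 32 of the 73 genes (43.8%), against 7.55% of all genes, a range chosen after the positions had been seen. The densest 10 bp were 10 to 20 bp downstream, where 12.3% of the members and 1.3% of all genes had a match. At the starts of the 56 head-to-head partners the share within the same range was 17.9% (10 genes). The share was 46.8% for large-subunit genes and 38.5% for small-subunit genes, and it was 18.2% for the 11 genes on X and 48.4% for the 62 autosomal genes.

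**Figure D1:**
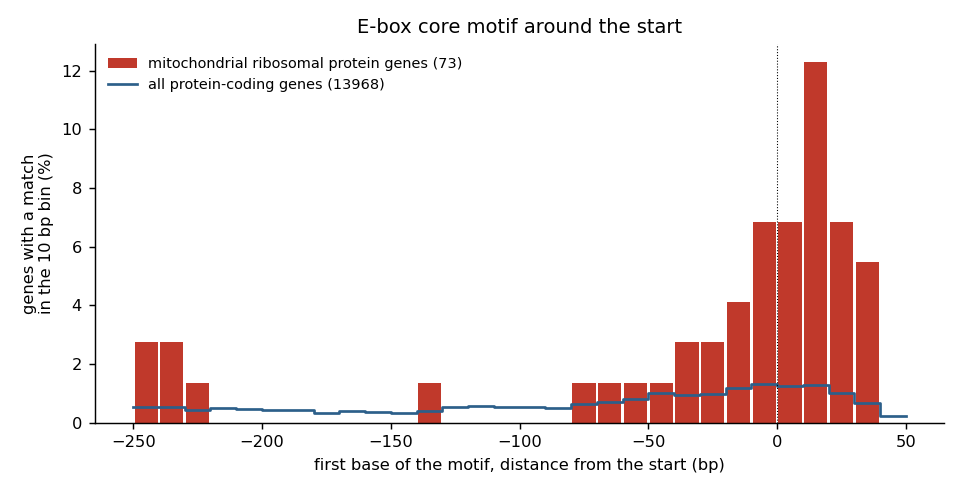
Share of genes (vertical axis, %) with the E-box CAGCTG beginning in each 10 bp bin by distance from the annotated start (horizontal axis, bp), for the 73 mitochondrial ribosomal protein genes (red bars) and all 13968 protein-coding genes (blue line). The red bars peak 10 to 20 bp downstream of the start at 12.3%, where the blue line is at 1.3%.

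The stretches between the starts of 3 close pairs are shown because all of the DNA that separates such a pair is contained in them, and no annotated transcript lies between. They are printed on the strand of the mitochondrial gene, from the base next to the partner start to the base before its own start. Capitals mark a match to GCCAT, the core of the Pho recognition sequence, on either strand.
mRpL2 and FoxK, chr3L:11120784-11120846, plus strand: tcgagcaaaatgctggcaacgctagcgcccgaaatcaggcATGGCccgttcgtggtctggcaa
mRpL11 and HtrA2, chr3R:14511713-14511837, plus strand: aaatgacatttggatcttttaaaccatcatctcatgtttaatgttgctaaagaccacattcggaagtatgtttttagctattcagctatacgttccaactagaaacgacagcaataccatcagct
mRpL55 and ATPsynD, chr3R:19094906-19094999, minus strand: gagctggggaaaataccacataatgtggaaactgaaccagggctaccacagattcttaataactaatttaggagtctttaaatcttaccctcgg

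Other words were searched on both strands of the same 300 bases, and each match is a description of letters. The DNA replication-related element TATCGATA, a housekeeping promoter element, was present in 20.5% of the members and 9.36% of all promoters, and its core ATCGAT, which lies inside it, in 37% and 23.3%. Motif 1 (GGTCACAC) was present in 11% and 7.69%, the word CATCNCTA in 11% and 6.41%, and TGCGCA in 8.22% and 6.95%. Cytoplasmic ribosomal protein promoters held TATCGATA at 30.4%, ATCGAT at 41.3%, Motif 1 at 15.2%, CATCNCTA at 9.78% and TGCGCA at 9.78%. In respiratory chain promoters the shares were 11.4%, 30.7%, 19.3%, 10.2% and 6.82%, in the same order. The Pho core GCCAT was present in 34.2% of the members against 41.2% of all promoters, and the homeodomain core TAATTA in 20.5% against 20.4%. GAGAGAG, read by GAGA factor, was present in 1 member (1.37%) against 5.86%. The TATA word TATAAA (46.6% and 45.8%) and CTTTT (75.3% and 76.6%) were as frequent in the members as in all promoters. Members with the E-box had a median H3K27ac coverage of 45.1% (n = 40), against 39.6% for those without it (n = 33). For Pho the medians with and without the E-box were 16.6% and 15.3%. Other words went with wider H3K27ac gaps, in either direction. The H3K27ac medians were 35.2% with ATCGAT and 45.8% without it, and 47.6% with GCCAT and 40.6% without it. For TAATTA they were 45.9% and 42.6%, and for Motif 1 43.4% and 43.6%. None of these differences was tested.

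H3K27ac was found at the start of nearly every mitochondrial ribosomal protein gene. All 73 genes had a peak in at least 7 of the 10 H3K27ac lists, as did 51% of all genes, and 21 had one in every list, against 14.9% of all genes. In each of the 10 lists the members were marked more often than all genes. In degradation nuclei 69 members (94.5%) had a peak in all 3 lists, where 52.9% of all genes did. In control nuclei 54 (74%) did, against 41.8% of all genes. Both late mesodermal lists held a peak at 28 members (38.4%), against 21.6% of all genes, and both early ones at 65 (89%), against 37.7%. For cytoplasmic ribosomal protein genes the shares were 93.5% in degradation, 83.7% in control, 82.6% in late and 93.5% in early nuclei. For respiratory chain genes they were 75%, 64.8%, 51.1% and 64.8%. Frequent H3K27ac was thus not particular to the members. The list set the level: the late list R3, with 4721 peaks, held a peak at 38.4% of the members and 21.8% of all genes, while the late list R2 held one at 100% and 88.4%. Without late R3 the late count was 73, and without control R3, the list with the mismatched peak names, the control count was 72.

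**Figure D2:**
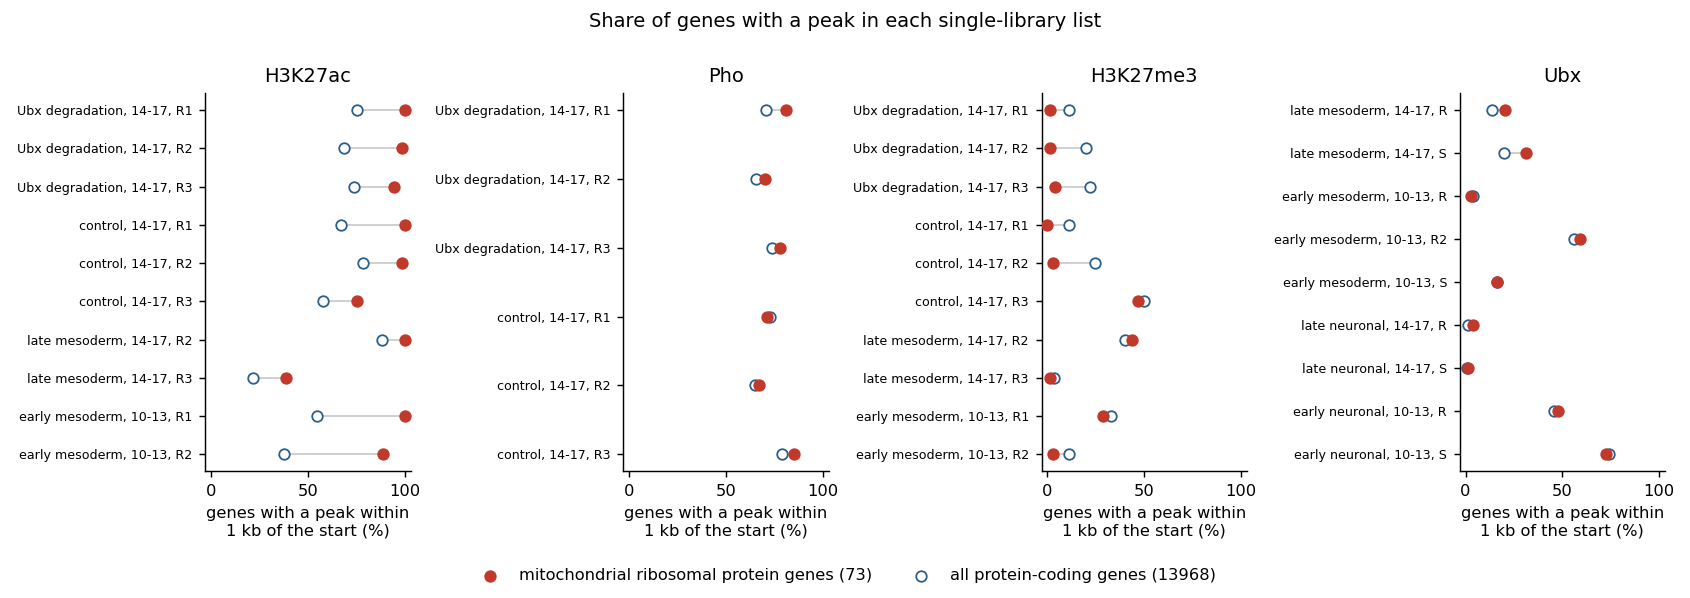
Percentage of genes with at least 1 peak within 1 kb of the start (horizontal axis) in each of the 35 lists (rows, with embryonic stage), for the 73 mitochondrial ribosomal protein genes (filled red) and all 13968 protein-coding genes (open blue). The red point lies to the right of the blue one in all 10 H3K27ac lists and to its left in 9 of 10 H3K27me3 lists.

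The share of the window covered ranged from 11.1% to 72% between members, as the mean of the 10 lists, with a median of 43.6%. The highest value belonged to mRpS16, a small-subunit protein with a bacterial counterpart, whose start lies 97 bp from that of cg, a zinc-finger gene. mRpS16 was covered over 74.4%, 92.8% and 45.4% in degradation nuclei and over 72%, 90.7% and 40.8% in control nuclei. It had 100% and 31.9% in late nuclei and 100% and 71.7% in early nuclei. Its values were thus high in all 10 lists and lowest in the short late list. mRpL2 followed with 69.8%, 91.9% and 44.6% in degradation nuclei and 78.3%, 100% and 10.2% in control nuclei. mRpL53 had a mean of 62.8%.

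The members with fewest H3K27ac lists had a peak in 7 of 10, and the 5 least covered of them were 4 large-subunit genes and mRpS5. mRpL33, next to the phospholipase gene norpA on X, had 17.9%, 7.75% and 2.55% in degradation nuclei and 6.6%, 41.3% and 0% in control nuclei. mRpL14, also on X, had 18.5%, 26.1% and 16% in degradation nuclei and 15%, 26.4% and 0% in control nuclei. Both were at 0 in the same 3 lists, namely control R3, late R3 and early R2. mRpL13 and mRpL19 had means of 17.9% and 25.1%. mRpS5, known in bacteria from the site where mRNA enters the ribosome, had 45.1%, 0% and 0% in degradation nuclei and 49%, 0% and 14.9% in control nuclei, but 88% and 8.25% in late and 79.1% and 44.1% in early nuclei.

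A second start in the window went with more H3K27ac. The 60 members with one had a median of 45.8%, and the 13 without had 26.8%. The same difference was present among all genes, where windows with another start averaged 34 ± 12% and windows without one 14.6 ± 4.53% in degradation nuclei (SD, n = 3 libraries). It lay upstream of the start. In degradation nuclei the upstream 1 kb was covered over 44.1% on average in members with another start, over 9.67% in those without, and over 17.8% in all genes. In the downstream 1 kb the means were 49.6% with another start, 43.9% without and 27.2% over all genes. The most covered 50 bp lay 250 to 300 bp downstream, at 85.4 ± 16.6% of the members in degradation nuclei and 38.5 ± 9.59% of all genes. In control nuclei it lay 200 to 250 bp downstream for the members, at 73.3 ± 38.8%, and 250 to 300 bp downstream for all genes, at 35.7 ± 20.9% (SD, n = 3 libraries each). Members alone in their window reached 89.5 ± 12.2% in degradation nuclei and 73.2 ± 36.8% in control nuclei.

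**Figure D3:**
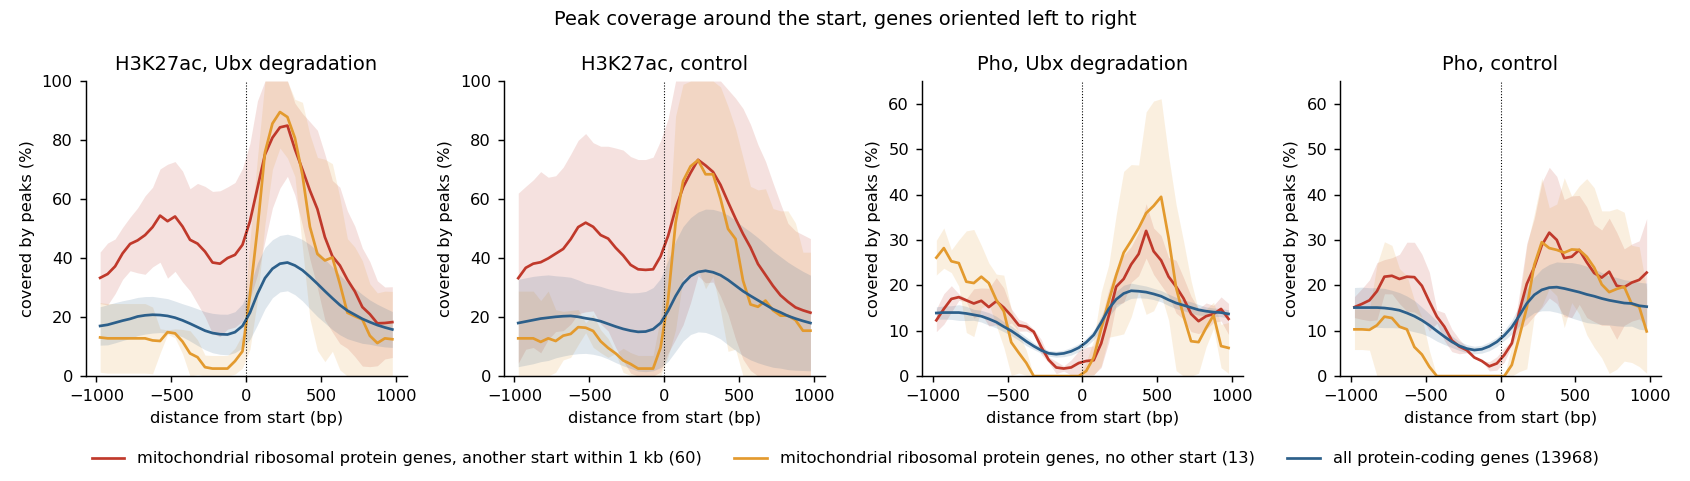
Percentage of genes covered by peaks in each 50 bp bin (vertical axis) by distance from the start (horizontal axis, bp, transcription to the right), as the mean of 3 libraries with the SD as a band cut at 0 and 100, for H3K27ac and Pho in degradation and control nuclei. Upstream of the start the 60 members with another start (red) lie above the 13 without (orange) in H3K27ac, while downstream both rise above all genes (blue).

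Pho peaks were frequent at the members and about as frequent at all genes. In degradation nuclei 80.8%, 69.9% and 78.1% of the members had a Pho peak, against 70.8%, 65.6% and 73.7% of all genes. In control nuclei the members had 71.2%, 67.1% and 84.9%, against 72.7%, 64.9% and 78.7%. A peak in all 3 lists was found for 37 members (50.7%) in degradation nuclei, against 45.2% of all genes, and for 34 (46.6%) in control nuclei, against 45.6%. Both counts are near those backgrounds. Coverage averaged 14.3 ± 1.46% in degradation nuclei over the members and 12.5 ± 1.16% over all genes, and 16.7 ± 6.31% and 13.8 ± 3.69% in control nuclei (SD, n = 3 libraries each).

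Pho coverage varied widely between members. Of the 73, 22 had a Pho peak in all 6 lists (27.7% of all genes) and 2 in none (4.1% of all genes). mRpL28 was the most covered, with 51.4%, 37.4% and 33.4% in degradation nuclei and 40.2%, 13.6% and 23.8% in control nuclei. mRpL11 had 47.8%, 0% and 53.7% in degradation nuclei and 24.1%, 12.8% and 43.9% in control nuclei, so that 1 of 6 lists held no peak beside levels above most other members. mRpS5 and mRpS25 had no Pho peak in any list. mRpL33, mRpL3 and mRpL49 had one in a single list, and these 3 as well as mRpS25 are on X.

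Pho coverage differed between chromosomes. The members lie on 2L (12), 2R (12), 3L (17), 3R (21) and X (11), and none is on chromosome 4 or Y. In degradation nuclei Pho covered 5.26 ± 1.8% of the windows of the 11 X-linked members and 15.9 ± 1.44% of those of the 62 autosomal members. Over all genes the values were 5.28 ± 1.09% on X and 13.9 ± 1.22% on autosomes, so the gap between chromosomes was shared by the whole genome. In control nuclei X-linked members had 7.04 ± 3.02% and autosomal members 18.4 ± 6.9%, against 6.02 ± 1.56% and 15.2 ± 4.1% over all genes (SD, n = 3 libraries each). Among the members, H3K27ac medians were 29.3% on X and 44.8% on autosomes, and the Ubx medians 0.733% and 3.13%. The H3K27ac gap was narrower over all genes. In degradation nuclei H3K27ac covered 31.6 ± 15.3% on X and 45.4 ± 16.7% on autosomes at the members. Over all genes it covered 20.9 ± 9.01% and 22.8 ± 7.39% (SD, n = 3 libraries each). For Ubx in early neuronal nuclei the means were 4.33% and 8% at the members, and 6.72% and 8.1% over all genes. In late mesoderm they were 0% and 2.08%, and 0.354% and 1.5%. The 6 Pho lists placed only 7.19% to 9.17% of their peaks on X, which holds 15.7% of the genes. The proportion of male and female embryos was not analysed here. By subunit the medians were 16.7% for large and 13.1% for small in Pho, and 44.5% and 41.2% in H3K27ac.

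Pho peaks were rare at the start itself. Within 50 bp of it 2.66% of the member sequence was covered in degradation nuclei, against 6.85% for all genes, and 3.06% against 8.26% in control nuclei. Coverage was highest 400 to 450 bp downstream in degradation nuclei, at 32.7 ± 6.36%, and 300 to 350 bp downstream in control nuclei, at 31 ± 13.3%. Over all genes the highest values were 18.8 ± 1.68% at 300 to 350 bp in degradation nuclei and 19.6 ± 5.55% at 350 to 400 bp in control nuclei (SD, n = 3 libraries each). H3K27ac and Pho peaks were also set side by side. In degradation nuclei 35 of 73 (47.9%) had both in every list, against 29% of all genes. Another 34 (46.6%) had H3K27ac in every list but Pho not in every list, against 24%. Pho in every list, with H3K27ac not in every list, was found at 2 members, mRpL50 and mRpS7 (16.3% of all genes). At 2 members, mRpL13 and mRpS5, neither was in every list (30.8% of all genes). These classes do not show absence: no member lacked H3K27ac in all degradation lists, and only 5 lacked Pho in all of them. In control nuclei 28 (38.4%) had both in every list, against 23.3% of all genes.

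**Figure D4:**
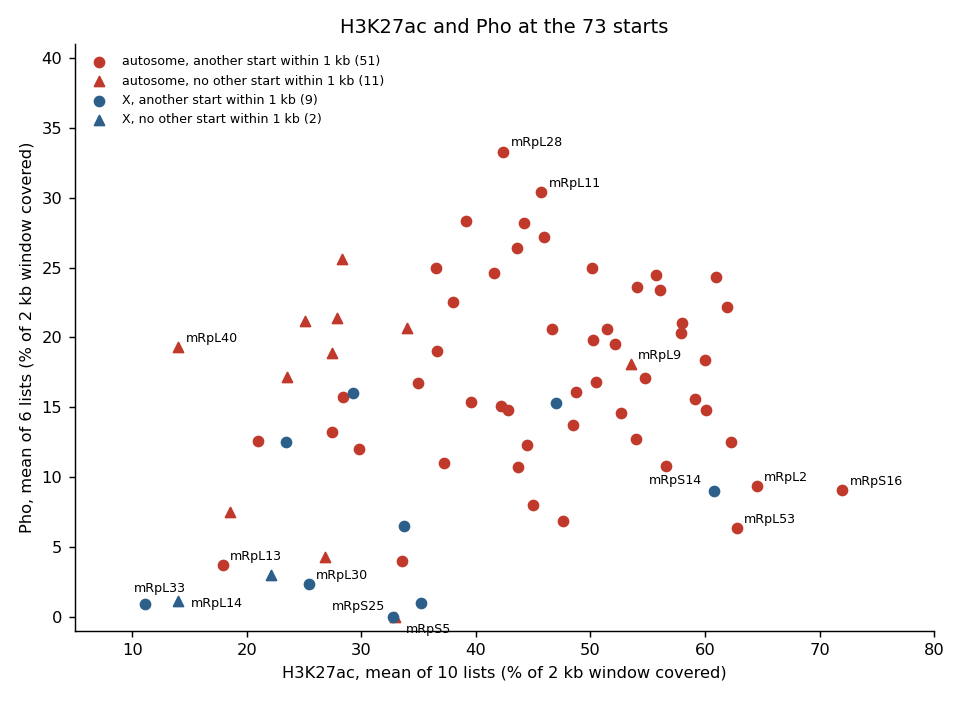
Mean coverage of the 2 kb window by Pho (vertical axis, %, 6 lists) against that by H3K27ac (horizontal axis, %, 10 lists) for each of the 73 genes, with colour for chromosome and shape for another start within 1 kb. Most X-linked genes (blue) lie low on the Pho axis, and mRpS16 stands farthest to the right at 72%.

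H3K27me3 was scarce at these starts. No member had a peak in all 3 lists of degradation nuclei, where 8.2% of all genes did, and none did in control nuclei, against 7.32%. No member had one in both late mesodermal lists, against 2.42%, and 1 member (mRpL30) had one in both early lists, against 7.25%. Mean coverage was 0.508 ± 0.244% over the members and 6.58 ± 0.935% over all genes in degradation nuclei, and 1.22 ± 1.7% and 6.11 ± 3.05% in control nuclei (SD, n = 3 libraries each). The 8 Hox genes, classic Polycomb targets, had 86.4 ± 11.8% covered in the same degradation libraries and 74.6 ± 16% in the control libraries. Scattered peaks appeared in the lists with many small peaks. Control R3, with 56131 peaks, held one at 46.6% of the members, against 50% of all genes, while the other 2 control lists held one at 0% and 2.74%. Late R2 held one at 43.8% and early R1 at 28.8%, against 39.9% and 33% of all genes.

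The exception was mRpL30 on X, whose start lies 457 bp from that of HLH4C, a basic helix-loop-helix gene. It had H3K27me3 over 20.8%, 34.2% and 0% of the window in degradation nuclei and over 0%, 33% and 0% in control nuclei. It was listed at 0% and 0% in late nuclei and at 3.35% and 3.2% in early nuclei. Its values were therefore high in 3 of 10 lists, which belong to both genotypes. The same window carried H3K27ac in all 10 lists, over 13.7%, 47.6% and 12.3% in degradation nuclei and 25.4%, 48.2% and 8.5% in control nuclei. The part of the neighbouring gene in these values was not tested. Another 4 members, mRpS10, mRpL17, mRpL51 and mRpS23, had a peak in 3 lists each (5.48% of the members and 10.6% of all genes). Their means were 3.3%, 3.2%, 1.67% and 1.51%. A further 13 members had none in any list (17.8%), about the share of all genes (18.9%).

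After Ubx degradation no mitochondrial ribosomal protein gene passed the test for a change in H3K27ac. For each comparison the lists were first cut to the covered length of the shortest one by dropping peaks with the lowest scores. The covered shares were then tested by limma across all genes covered in at least 1 library, on the arcsine square-root scale with Benjamini-Hochberg adjustment at 0.05. All 73 members were tested, among 12210 genes. None was called higher or lower, none passed 0.05 without adjustment, and 0% of all genes were called in either direction. Mean coverage over the members was 40.2 ± 17% in degradation nuclei and 39.7 ± 29.3% in control nuclei (SD, n = 3 libraries each). The difference was above 0 for 37 members and below 0 for 35. The spread between libraries of 1 genotype exceeded the difference between the genotype means: control R2 averaged 69.5% over the members and control R3 10.9%.

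In 2 members the 3 degradation libraries lay above all 3 control libraries, where 0.753% of all genes tested did, and in none below, where 0.221% did. mRpS29, known in mammals as the GTP-binding death-associated protein DAP3, had 45.5%, 50% and 47% covered in degradation nuclei and 24.1%, 39% and 2.5% in control nuclei. Its difference was 25.7 points (limma, adjusted p = 1). mRpL19 had 13.6%, 53.3% and 19.1% in degradation nuclei and 10.3%, 0% and 0% in control nuclei, a difference of 25.2 points (limma, adjusted p = 1). In the lists as deposited the genotypes overlapped at both genes. mRpS29 then had 50.4%, 59.9% and 47% in degradation nuclei and 26.7%, 50.8% and 2.5% in control nuclei. mRpL19 had 13.6%, 53.3% and 19.1% in degradation nuclei and 18.8%, 35.7% and 0% in control nuclei, a difference of 10.5 points.

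In Pho the 70 members covered in at least 1 library were tested among 13108 genes, and none was called in either direction (limma, lowest adjusted p = 0.962, 0% of all genes called). Without adjustment the 0.05 threshold was passed by 2 members that were higher, mRpL12 and mRpS34, and 1 that was lower, mRpL17. Among all 13108 genes tested, 266 that were higher and 154 that were lower passed it. Mean coverage over the members was 12.8 ± 0.711% in degradation nuclei and 13.9 ± 4.39% in control nuclei (SD, n = 3 libraries each). Degradation libraries lay above all control libraries in 2 members (4.98% of all genes tested) and below them in 4 (3.03% of all genes tested). mRpL12, the stalk protein that contacts translation factors in bacteria, had 49.2%, 26.9% and 27.9% in degradation nuclei and 14.4%, 0% and 5.7% in control nuclei (limma, adjusted p = 0.962). mRpS34 had 17.4%, 43.5% and 33.5% in degradation nuclei and 13.2%, 7.45% and 0% in control nuclei (limma, adjusted p = 0.962). Over a window of 250 bp either side of the start the difference for mRpS34 was −6.33 points.

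The 4 members that ran the other way included 2 of the largest differences. mRpL17, a protein of the large-subunit surface in bacteria, had 0%, 11.2% and 3.9% in degradation nuclei and 35%, 31.8% and 34.9% in control nuclei (limma, adjusted p = 0.962). mRpS10 had 10.8%, 5.8% and 10.8% in degradation nuclei and 14%, 42.2% and 54.2% in control nuclei (limma, adjusted p = 0.962). mRpL16 had 1.65%, 0% and 0% in degradation nuclei and 27.4%, 5.35% and 17.7% in control nuclei. mRpS14 had 0%, 0% and 3.15% in degradation nuclei and 3.65%, 13.2% and 34% in control nuclei. These 6 members thus ran in both directions, and none passed the adjusted threshold. In the lists as deposited the genotypes overlapped at mRpS34, where control R3 had 38.8% and the difference was 11.7 points instead of 24.6. They also overlapped at mRpL16, where degradation R3 had 25.9%.

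In H3K27me3 20 members were covered in at least 1 library and none was called (limma, lowest adjusted p = 0.485, 4499 genes tested, 0% called in either direction, no member past 0.05 without adjustment). In no member did the libraries of the genotypes lie apart, higher or lower, where 0.222% of all genes tested did in each direction. Coverage over the 73 members was 0.156 ± 0.271% in degradation nuclei and 0.67 ± 0.772% in control nuclei (SD, n = 3 libraries each). The difference was above 0 for 1 member and below 0 for 19, and for 769 and 3725 of all genes tested. After cutting, control R3 held a peak at 18 members and covered 1.51%, while control R1 and R2 held one at 0 and 2. The degradation lists held one at 0, 1 and 0 members, so the lower mean rested mainly on control R3. Without control R1, the shortest list, the difference of −0.514 points became −1.58. No gene that could be tested was called in the other lists of mitochondrial genes or in that of cytoplasmic ribosomal proteins. Of 88 respiratory chain genes, 86 were tested in H3K27ac, 85 in Pho and 18 in H3K27me3, and of 92 cytoplasmic ribosomal protein genes 90, 89 and 19. All 15 mitochondrial tRNA synthetases, 13 genes of mitochondrial DNA and its transcription and 13 other genes of the mitochondrial ribosome and its factors were tested in H3K27ac and Pho, but only 6, 1 and 4 in H3K27me3. Median differences in Pho were −1.16 points for the 70 members tested, 1.38 for respiratory chain genes and 0.2 for all genes.

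**Figure D5:**
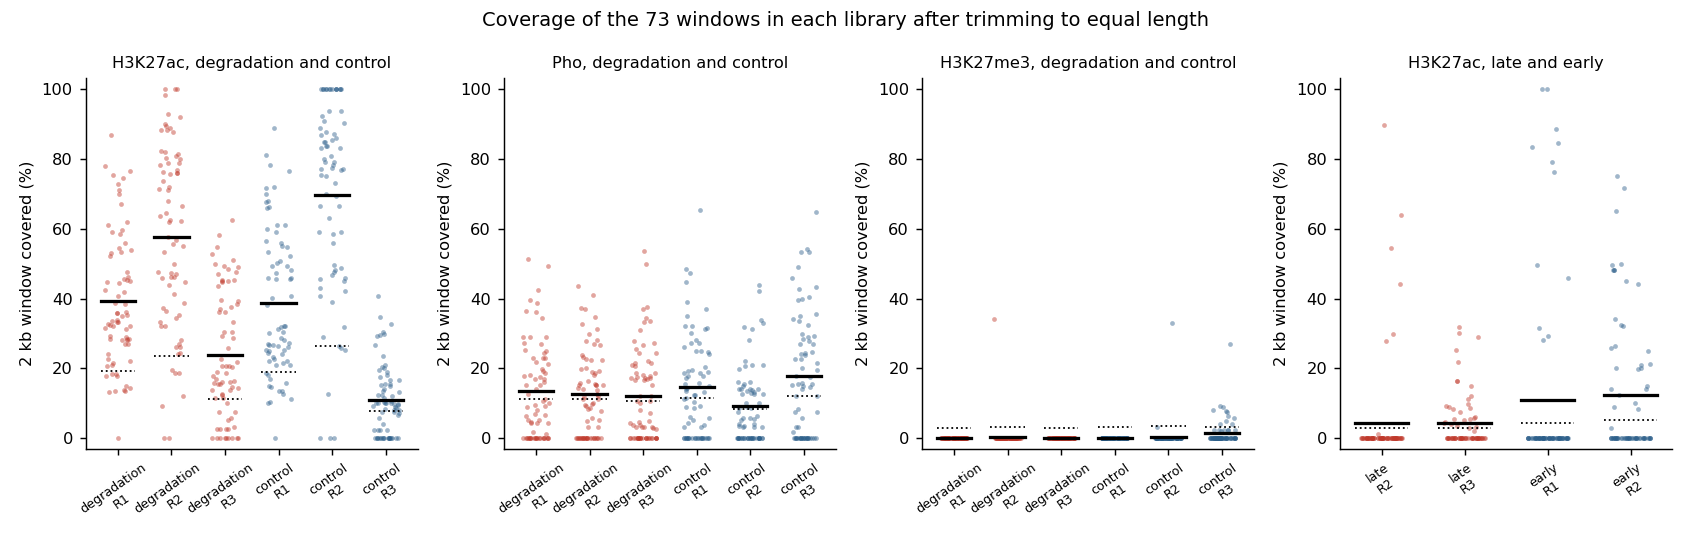
Coverage of the 2 kb window (vertical axis, %) at each of the 73 genes (points) in each library after lists were cut to equal length, for H3K27ac, Pho and H3K27me3 in degradation and control nuclei and H3K27ac in late and early nuclei. Thick bars mark the mean over the 73 genes and dotted bars that over all 13968 genes, and the H3K27ac means range from 10.9% to 69.5% between control libraries.

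In mesodermal nuclei without the degradation transgenes, the late and early stages were compared with 2 libraries each. The H3K27ac lists had to be cut to 1.01 Mb, the length of late R3, which left 868 peaks of late R2 and 584 of early R1. On this basis the members had 4.29 ± 0.031% covered late and 11.7 ± 1.09% early, and all genes had 2.87 ± 0.00471% and 4.8 ± 0.716% (SD, n = 2 libraries each). The test called no member among the 47 covered in at least 1 library (limma, lowest adjusted p = 0.654, 4148 genes tested, 0% called in either direction). Without adjustment the 0.05 threshold was passed by 1 member, mRpS16, which was lower, with 0% and 31.9% late and 100% and 71.7% early (limma, adjusted p = 0.654). Among all 4148 genes tested, 176 that were lower and 13 that were higher passed it. The difference of −69.9 points for mRpS16 was 14.2 points without late R3, when the lists could be cut less.

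Both late libraries lay below both early ones in 5 members, where 11% of all genes tested did, and above them in 2, where 2.92% did. The 5 were mRpS16, mRpS17, mRpL37, mRpL27 and mRpL4. mRpL37, a large-subunit protein without a bacterial counterpart, had 0% and 5.9% late and 76.1% and 32.4% early. mRpS17 had 29.9% and 0% late and 100% and 34.1% early, while mRpL4 had 0% and 0% late and 29.2% and 20.1% early. The 2 that ran the other way, mRpL10 and mRpL36, were at 0% in both early libraries after cutting. mRpL10, at the base of the stalk, had 44.2% and 9.8% late, and mRpL36 54.6% and 7.5%. In the lists as deposited the differences for mRpL10 and mRpL36 were −4.8 and −9.8 points, so the direction followed the cutting. The 5 lower members stayed lower as deposited, but the libraries of the stages no longer lay apart. The difference was −7.1 points instead of −51.3 for mRpL37, −18.2 instead of −47.9 for mRpL27, −19.9 instead of −69.9 for mRpS16, −15.1 instead of −24.6 for mRpL4 and −42.2 instead of −52.1 for mRpS17.

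These stage comparisons rested on single libraries. Without late R2, 14 members were called higher and none lower (limma, 37.2% of all genes tested called higher and 0.197% lower), with the lone late library assumed to vary like the early ones. Without early R1, 13 were called lower and none higher (17% of all genes tested called lower and 0% higher). In H3K27me3 only 1 member was covered in any library after cutting to 1 Mb, and it was not called (limma, adjusted p = 0.506, not past 0.05 without adjustment), while 1.93% of the 934 genes tested were called lower and 0% higher. It did not separate the stages in either direction (4.39% of all genes tested higher, 9.1% lower). Without late R2, 1 member was called higher and none lower (65.5% and 5.18% of all genes tested), and without late R3 16 were called higher and 1 lower (42.1% and 0.88%). In these 4 fits the remaining pair of libraries of 1 stage had identical values, and so no spread, at 37.3%, 20.4%, 67.7% and 42.3% of the genes tested, in the order given. No such gene occurred among the 4148 and 934 genes tested with all libraries, and limma's error is unreliable where many genes lack spread.

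The share of members with a Ubx peak differed widely between lists, as did that of all genes. In late mesoderm 20.5% (list R) and 31.5% (list S) of the members had a Ubx peak, against 13.9% and 19.9% of all genes. In early mesoderm the shares were 2.74% (R), 58.9% (R2) and 16.4% (S), against 4.01%, 56.2% and 16.3%. In late neuronal nuclei they were 4.11% and 1.37%, against 1.29% and 0.931%, and in early neuronal nuclei 47.9% and 72.6%, against 45.8% and 74.3%. The labels do not say what R and S stand for. The member share exceeded that of all genes in 7 of the 9 lists.

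Ubx was repeated between lists of a group at few members, except in early neuronal nuclei. In late mesoderm 5 members had a peak in both lists (3.39% of all genes), namely mRpL12, mRpL18, mRpL34, mRpS16 and mRpS18C. In early mesoderm no member had one in all 3 lists (0.623% of all genes). In late neuronal nuclei none had one in both lists (0.0501% of all genes), and in early neuronal nuclei 26 did (37% of all genes). The late mesoderm count was 15 in list R alone and 23 in list S alone, and the early neuronal count was 53 in list S alone. Without any one of the 3 early mesoderm lists the count was between 1 and 4 (share of all genes not given here).

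The 5 late mesoderm members had little coverage each. mRpL34 had 8.6% and 13.6% in late mesoderm, 0%, 0% and 18.1% in early mesoderm, 0% and 0% in late neuronal nuclei and 10.9% and 17.9% in early neuronal nuclei. mRpS16 had 8.45% and 8.55% in late mesoderm, 0%, 2.5% and 0% in early mesoderm, and 13% and 10.9% in early neuronal nuclei. mRpL12 had 3.4% and 5.7% in late mesoderm, mRpL18 2.15% and 8.5%, and mRpS18C 2.5% and 9.9%. Of the 5, mRpS18C alone (1.37% of the 73 members) had no peak in any early mesoderm list, a pattern found at 0.945% of all genes. All 5 (6.85% of the 73 members) lacked a peak in the late neuronal lists, a pattern found at 3.22% of all genes. No member had the opposite pattern in either comparison, a peak in every early mesoderm list and no late one (0.394% of all genes) or in every late neuronal list and no late mesoderm one (0.00716% of all genes). The 2 late neuronal lists held a peak at 4 members in all, mRpL4, mRpL9, mRpL23 and mRpL53, each in 1 list.

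A peak in both early neuronal lists and in no late neuronal list was found at 25 of the 73 members (34.2%), against 36% of all genes. A peak in both early neuronal lists and in no early mesoderm list was found at 4 (5.48%), against 10.7% of all genes. Neither share exceeded that of all genes. No member had a peak in every late neuronal list and no early one (0.00716% of all genes), or in every early mesoderm list and no early neuronal one (0.0358% of all genes). The 4 without an early mesoderm peak were mRpL16, mRpL39, mRpL47 and mRpL54. mRpL16, which shares its upstream region with the histone methyltransferase gene trr, had 13.1% and 42% in early neuronal nuclei and 0% in the other 7 lists. mRpS10 had the highest mean over the 9 lists, 9.39%, from 21% and 54.2% in early neuronal nuclei and 9.35% in early mesoderm R2. No member had Ubx in more than 5 of 9 lists, as 0.687% of all genes did. mRpL13, mRpL14, mRpL30, mRpL33 and mRpL50 had it in none (6.85% of the members and 7.04% of all genes). The early neuronal count of 26 was 0 when every list was cut to the 936 best-scored peaks of the shortest one, and 3 within 250 bp of the start. The share of all genes under these settings is not given here. The number and quality of nuclei behind each list were not given in the sources used here, and their part in the list lengths was not tested. In bulk chromatin, fewer nuclei with a bound site and weaker binding in every nucleus cannot be told apart.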

How the data were processed

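ChIP-seq broad-peak lists from 35 immunoprecipitates were used. The 25 inputs served the authors as background, and 5 combined lists were left out. FastQC, Bowtie and MACS2 and the dm6 genome are named per the submitters' processing notes. Their versions are not given in the sources used here. Each peak carries a score, a fold enrichment (a ratio over input), and −log10 p and −log10 q, all deposited by the authors. The peaks were called per library, as the list names show. The fold enrichments deposited by the authors were used only as an alternative order for cutting lists. The protocols in the labels give a home-made guinea pig antibody for Ubx, commercial ones for H3K27ac and H3K27me3, a rabbit antibody for Pho, and amplification of the libraries, so duplicate molecules could affect peak calls.

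Coverage of windows was computed with Python 3.11.15, and shares were tested with limma 3.58.1 in R 4.3.3, with a mean-variance trend, after lists were cut to equal covered length by score. The procedure was also run on simulated data, with independent noise smaller than the spread of the real libraries. That run therefore cannot show how often a real change would be missed here. Ubx was only described, because its lists differ most in length. The coordinates of 13 peaks in 7 lists pass a chromosome end by at most 71 bp. Broad lists of unequal length carry their caller's threshold into every share. The 73 genes were picked by name alone, but they, the lists of other genes and the motifs were chosen with earlier results of these data known. Genes were named where they came from a preset list of 20 members, had the most or fewest peaks, or were called; where fewer than 5 were called, those whose groups did not overlap, by size of the difference, were named. Degradation and control libraries of the same number deviated together over 12210 genes in H3K27ac (r = 0.438, 0.598 and 0.587 for numbers 1 to 3) and over 4499 genes in H3K27me3 (r = 0.319, 0.371 and 0.299). The shared numbers stand in the labels, and that same-numbered libraries belong together is read from these correlations. The alternatives tried were lists as deposited, the better-scored 50%, cutting by fold, other windows, other filters, each library left out and the replicate block.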

Additional observations from a re-analysis of the deposited data

How the results depend on the processing

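Of the values that answer a comparison, 200 stayed on their side or within 1.5 times and 41 moved. Of those for single genes 173 stayed, 3 passed the threshold and 5 reversed. In the fits with a replicate block 0 members were called in H3K27ac, Pho or H3K27me3 between degradation and control, higher or lower (lowest adjusted p 0.842, 0.973 and 0.538), so the pairing changed no call. In Pho same-numbered libraries did not deviate together (r = 0.00429, −0.0173 and −0.0159). No paired analysis was possible between the stages because they share 1 number only. Fits over all genes without a filter could not be fitted for H3K27me3 in either comparison or for H3K27ac between stages.

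The mean H3K27ac difference between late and early, −7.4 points, was −11.9 in the lists as deposited, −11.2 with the better-scored 50%, −10.6 within 250 bp, −5.54 over the gene region, and −10.2 to −6.62 with each library left out. For H3K27me3 it was 0.556, 0.275 and 0 under the first 3 of these and 0.0171 to 1.13 with each library left out. Members called in H3K27ac ranged from 0 to 14 higher and 0 to 13 lower with each library left out, and in H3K27me3 from 0 to 16 higher and 0 to 1 lower. Between degradation and control the mean H3K27me3 difference ranged from −1.58 to −0.0919. Reversed differences were −6.33 for mRpS34 in Pho within 250 bp, −9.8 for mRpL36 in the lists as deposited and with the better-scored 50%, −4.8 for mRpL10 as deposited, and 14.2 for mRpS16 without late R3 (range −84.1 to 14.2 with each library left out). The causes were not tested.

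Members with Ubx in every early mesoderm list numbered 3 over the gene region and 1 to 4 with each list left out. In early neuronal lists they numbered 0 cut to the shortest list, 7 with the better-scored 50%, 41 over the gene region, 3 within 250 bp, 8 at 10% of the window, and 35 to 53 with each list left out. In late mesoderm they numbered 0, 1, 0 (within 250 bp) and 0 (at 10%), and 15 to 23, and in late neuronal lists 1 to 3. With each list left out, an alternative chosen after seeing the data, H3K27me3 in every list numbered 0 to 1 for degradation, 0 to 1 for control, 1 to 32 for late and 2 to 21 for early mesoderm, and H3K27ac in late mesoderm 28 to 73. With 1 list of a pair left out, the count is that of the other list. Of all genes, 45.8% and 74.3% had Ubx in the early neuronal lists R and S, and 13.9% and 19.9% in the late mesoderm ones. H3K27me3 was at 39.9% and 3.22% of all genes in late R2 and R3, and at 33% and 11.4% in early R1 and R2. H3K27ac was at 88.4% and 21.8% in late R2 and R3. For the remaining counts the share of all genes is not given here, so they do not set the members apart. Unknown read depth and list length limit what a missing peak shows.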
